A study of Mus musculus with 12 samples.

Results

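The genes described here encode the mitochondrial ribosomal proteins: every protein-coding gene of both deposited tables whose symbol begins with Mrpl or Mrps followed by a digit. This rule found 77 genes, 48 named Mrpl (large subunit) and 29 named Mrps (small subunit), among 12889 protein-coding genes listed in both tables. It used names alone and no measured value. For blastocysts, 77 protein-coding symbols matched, as did 5 pseudogenes that were left out. For ES cells, 78 matched, because Mrpl58, a peptidyl-tRNA hydrolase built into the large subunit, is listed there under that name but as Ict1 in the blastocyst table. By its rule Mrpl58 is therefore not among the 77.

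The study compared RNA from mouse material labelled Dis3L KO and Dis3L WT; DIS3L is a nuclease of the cytoplasmic exosome, which digests RNA in the 3′ to 5′ direction. There were 12 samples by the labels, 3 in each of 4 groups: KO and WT blastocysts, and KO and WT embryonic stem (ES) cells, the cultured pluripotent cells derived from blastocysts. Embryos were collected 96 h after hCG injection of hormonally stimulated females, RNA was taken from single embryos, and libraries were made by Tn5 tagmentation of cDNA. ES cell lines had been established and grown on inactivated mouse embryonic fibroblasts with serum and LIF, and their ribosome-depleted RNA was sequenced as stranded libraries. The labels give no strain or parental genotype, and do not say whether ES cell samples of 1 genotype were separate lines.

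Mitochondria keep their own ribosome, which translates the few messages of the mitochondrial genome, all of them for subunits of the respiratory chain and ATP synthase. Its RNAs come from mitochondrial DNA, but every one of its proteins is encoded in the nucleus, made in the cytosol and imported. Some of these proteins descend from bacterial ribosomal proteins and others occur only in mitochondria. A blastocyst is the embryo just before implantation, a stage at which the embryo's oxygen use rises.

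Neither table holds a value per sample. Each gives, per gene, the mean of normalised counts over the libraries, a log2 fold change, its standard error, a Wald p-value and a Benjamini-Hochberg adjusted p-value. Which genotype is the numerator is not stated, so signs are given as deposited: a negative value means less RNA on what is called here the positive side of the comparison. Each read adds a fixed amount to such a mean, depending on its library, so the whole reads behind a mean could be solved for, library by library. The blastocyst table rests on 6 count columns, 3 on each side, and the ES cell table on 4, 2 on each side, although the labels list 6 ES cell samples. Columns are numbered within a side from the largest size factor to the smallest, a number that has no link to the replicate numbers of the labels, and none was assigned to a sample or a genotype. Size factors were 0.70 to 1.62 in blastocysts and 0.76 to 1.25 in ES cells, and summed reads of the members were 5971 to 17896 and 3220 to 4910 per column. Dis3l itself had 18.6, 8.12 and 0 normalised reads (positive side) against 6.18, 4.46 and 11.5 (negative side) in blastocysts, values that overlap. In ES cells its 11.2 and 10.5 lay below 37.1 and 37.7, with an adjusted p of 0.445 in the authors' deposited table (DESeq2 Wald test).

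One blastocyst column stood apart from its own side, and every blastocyst result below should be read with that in view. Relative to each gene's own mean, the median member lay at −0.33, −0.35 and −0.35 (log2) in positive-side columns 1, 2 and 3. The negative side gave 0.43 in column 1 and 0.46 in column 3, but −0.21 in column 2. There 30 of 76 members exceeded their own mean, against 65 and 64 in the other negative-side columns and 16 to 21 on the positive side. Over 981 other genes in the same range of means the column medians ran from −0.10 to −0.01. Set column against column, the members' median log2 ratio of any positive-side column was −0.76 to −0.80 over negative-side column 1 or 3, and −0.06 to −0.11 over column 2. Between negative-side columns 1 and 2 the median ratio was 0.53, and between columns 2 and 3 it was −0.76. A median of that size was thus also found between columns of 1 side. The labels name no batch that could be set against it.

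**Figure D1:**
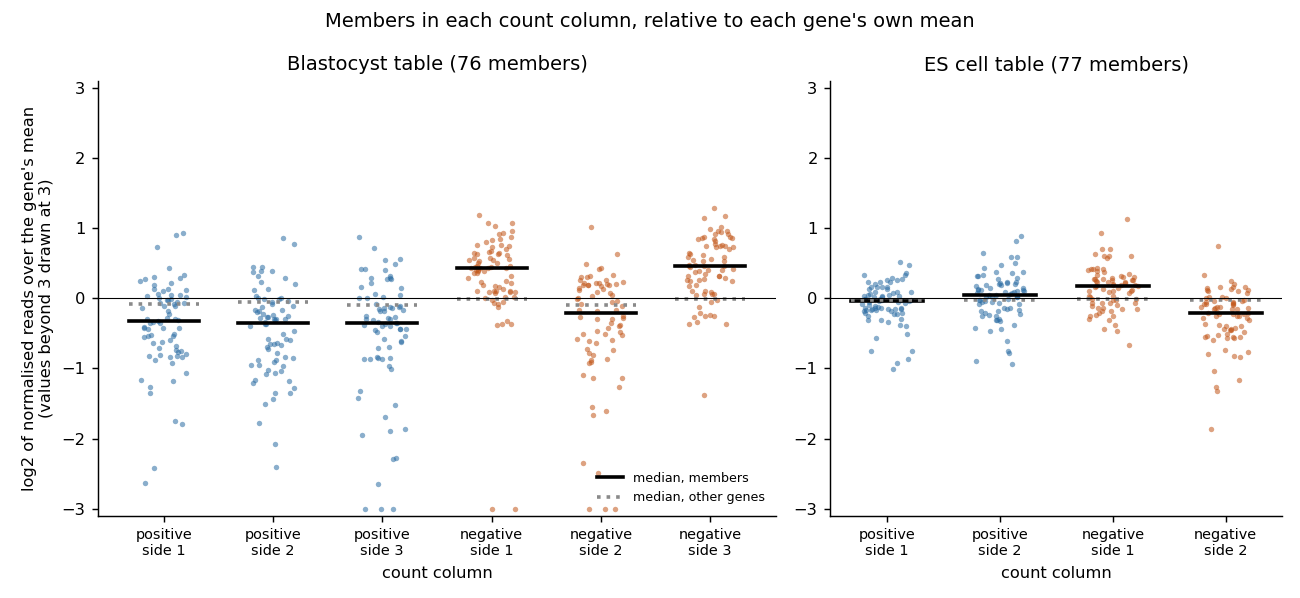
Normalised reads of each member (points) in each count column, as log2 of the gene's own mean, with the median of the members (black line) and of the other genes (dotted line). In blastocysts the members sit low in the 3 positive-side columns and in negative-side column 2, and high in negative-side columns 1 and 3; in ES cells the negative-side columns lie on opposite sides of 0.

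In the blastocyst table the members leaned to the negative side as a group, but no single gene passed the test. Of 76 tested members, 70 had a log2 fold change below 0 and 6 above 0, beside 51.7% below 0 over all 15209 tested genes. Their median was −0.62, with a middle range of −0.85 to −0.32, beside −0.04 over all tested genes. None had an adjusted p under 0.05 in the authors' deposited table (DESeq2 Wald test), where 0.0986% of all genes did; the smallest was 0.285. At an unadjusted p under 0.05, 5 members were on the negative side and 0 on the positive side, while all tested genes gave 3.53% and 2.68%. Their standard errors ran from 0.36 to 1.82, and for 37 of the 76 an interval of 1 standard error reached 0. Other protein-coding genes with means in the members' range and transcript lengths of 1056 to 3277 bases had a median of −0.14, with 1833 of 3153 below 0. A lower level in bulk RNA cannot tell fewer cells of a type from less RNA per cell.

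Leaving out each count column in turn kept the members' median below 0, between −0.85 without negative-side column 2 and −0.48 without negative-side column 3. The number of members below 0 then ranged from 60 to 71 of 76. In 18 of 76 members every positive-side column lay below every negative-side column, column 2 included, beside 6.22% of the 981 other genes. In 0 members did every positive-side column lie above, beside 4.79%. In the other 58 the sides overlapped.

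**Figure D2:**
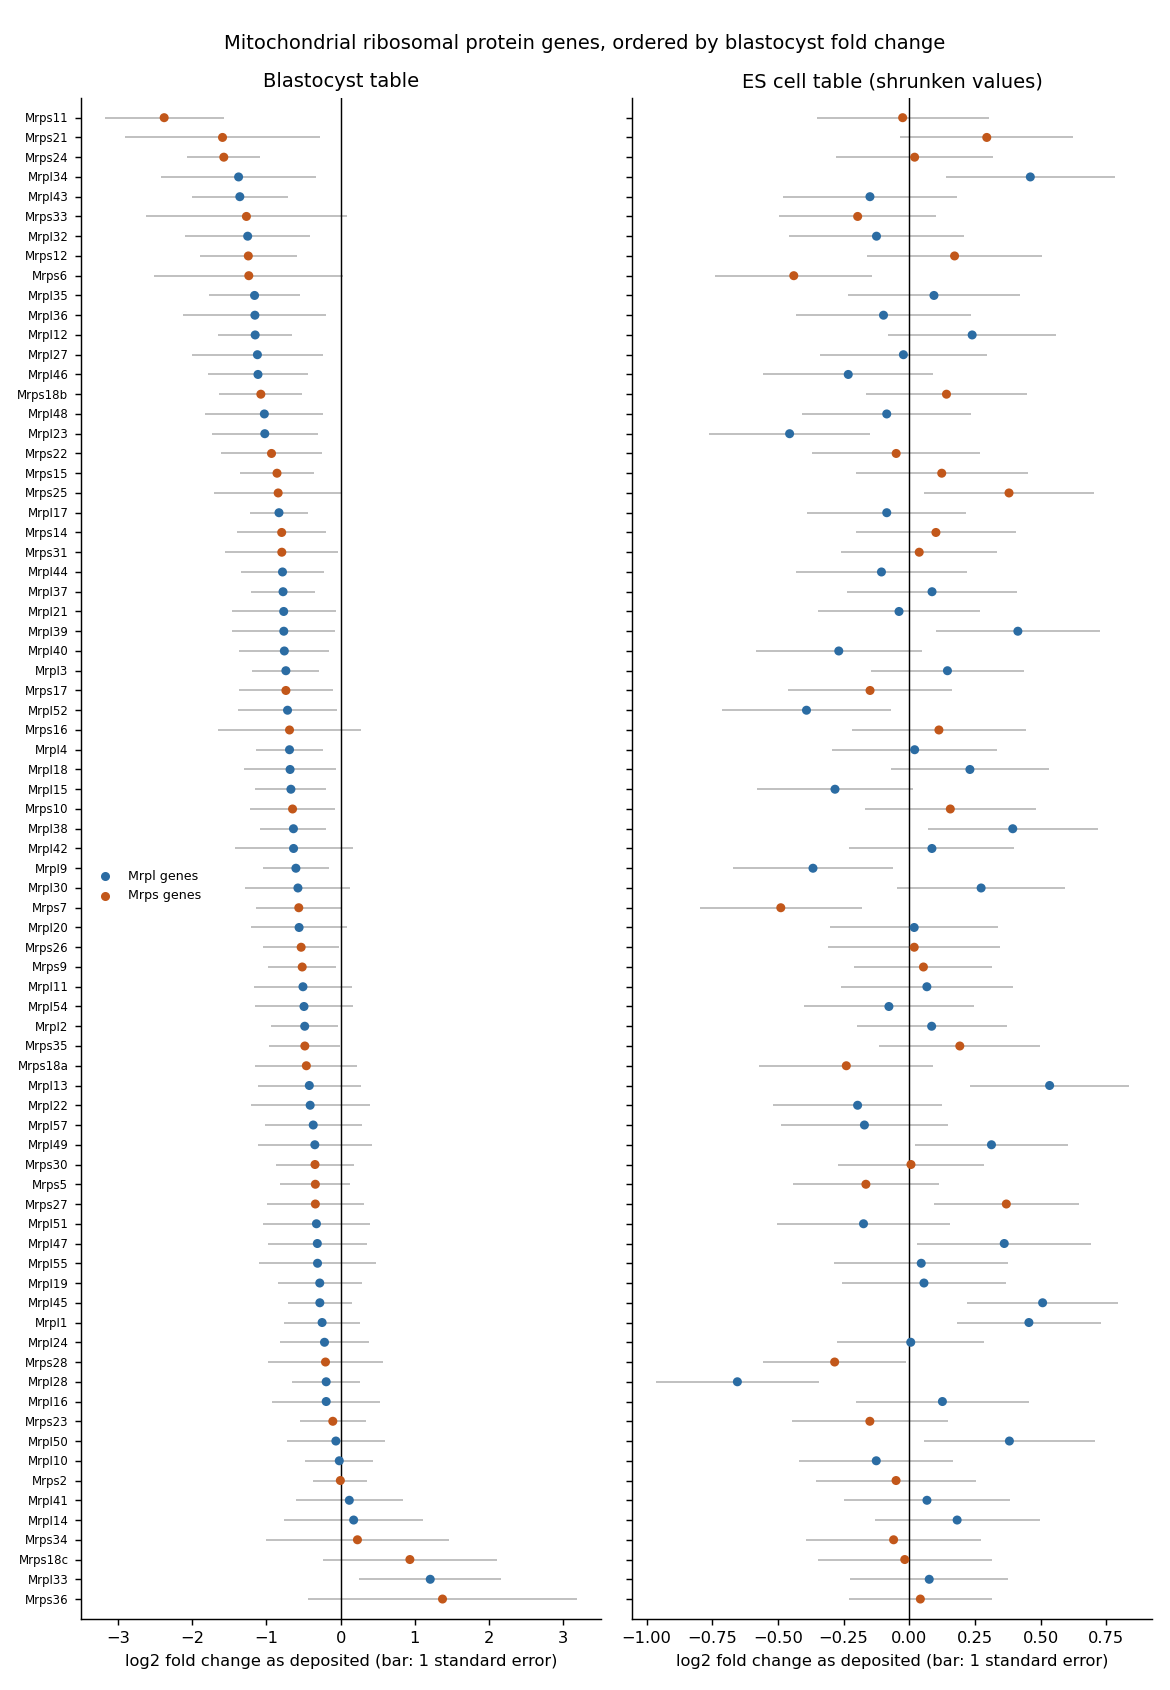
Log2 fold changes as deposited, with 1 standard error, for the 76 members with a value in both tables, ordered by the blastocyst value (left) and shown in the same order for ES cells (right; these are shrunken and on a narrower axis). On the left 70 points lie below 0, from −2.38 for Mrps11 to 1.37 for Mrps36; on the right they lie on both sides of 0, from −0.65 for Mrpl28 to 0.53 for Mrpl13.

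Small-subunit proteins related to bacterial ones held both of the lowest p-values. Mrps24, a protein of the small subunit's head, had 57.1, 67.0 and 84.6 normalised reads on the positive side, against 181, 187 and 253 on the other. All 3 negative-side columns exceeded the highest positive-side column by more than the spread within either side, and column 2 was no exception here. The authors' deposited table gives it a log2 fold change of −1.57 ± 0.49 (SE) with p = 0.0013 and an adjusted p of 0.285 (DESeq2 Wald test). Mrps11, a protein of the platform on which messages meet the small subunit, had 9.99, 10.1 and 34.3 normalised reads against 106, 64.7 and 109. Its change was the largest of the family, −2.38 ± 0.80 in the authors' deposited table, with p = 0.0030 and an adjusted p of 0.384 (DESeq2 Wald test). It rests on 14, 10 and 30 reads on the positive side.

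Mrps11 lies at chr7:78783119-78792989 (GRCm38, plus strand), head to head with Mrpl46, and 173 of its exon bases are shared with that gene on the other strand. Strand was not stated for counting the blastocyst reads, so reads in the shared bases cannot be assigned. Mrpl46, a large-subunit protein named here because of this overlap and not by the naming rule, had 68.5, 34.5 and 36.6 normalised reads against 119, 58.0 and 127. Its log2 fold change in the authors' deposited table was −1.11 ± 0.68, and its columns overlap. Mrps24 lies at chr11:5703983-5715680, on the minus strand, and shares 15.4% of its exon bases with Urgcp on the same strand.

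The remaining small-subunit genes mostly had negative values with wide errors. Mrps12, part of the decoding centre, had 25.7, 89.3 and 45.7 normalised reads against 103, 114 and 164. Mrps18b, a mitochondria-specific relative of a bacterial protein, had 68.5, 50.8 and 73.1 against 174, 124 and 106. Mrps15 had 99.9, 71.0 and 89.1 against 182, 143 and 147. In each of these 3, and in Mrps9 with 161, 122 and 105 against 183, 178 and 196, the sides did not overlap. For Mrps12 and Mrps9 the gap between the sides was smaller than the spread of the positive-side columns. The deposited log2 fold changes of Mrps12, Mrps18b, Mrps15 and Mrps9 were −1.24, −1.08, −0.86 and −0.52. The lowest p of the 4 was 0.0546 in the authors' deposited table (DESeq2 Wald test). Mrps21 was second lowest of the family at −1.59, but on 14.3, 20.3 and 0 normalised reads against 18.6, 29.0 and 57.5, sides that overlap. Mrps2, the most abundant member by mean, had 394, 317 and 267 against 367, 274 and 340, nearly equal means on both sides. Over the 26 members of the small subunit, which leave out Mrps36 and the large-subunit proteins Mrps18a and Mrps30, 24 values were below 0, with a median of −0.71.

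In the large subunit the lowest p belonged to Mrpl12, the flexible stalk protein that brings translation factors to the ribosome. It had 114, 54.8 and 91.4 normalised reads against 200, 187 and 193. The negative-side columns agreed closely, at 193 ± 6.25 (SD, n = 3 columns), and lay well above the positive-side mean of 86.8 ± 30.0 (SD, n = 3 columns). The authors' deposited table gives −1.15 ± 0.50 with p = 0.0218 and an adjusted p of 0.691 (DESeq2 Wald test). The other stalk proteins did not share this separation. Mrpl10, which anchors the stalk, had 170, 185 and 290 against 233, 138 and 282, and Mrpl11, at the stalk base, 85.7, 97.4 and 101 against 152, 35.7 and 216. In both, negative-side column 2 was the lowest of all 6. Mrpl53 is listed at 0 in blastocysts, and 88.0% of its exon bases are shared with other annotated genes, so this 0 says nothing of its level.

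An unadjusted p under 0.05 was also found for Mrpl17 and Mrpl43. Mrpl17, near the tunnel through which the nascent protein leaves, had 151, 187 and 238 normalised reads against 333, 297 and 394. The sides lay apart, and the authors' deposited table gives −0.83 ± 0.39 with p = 0.0335 and an adjusted p of 0.769 (DESeq2 Wald test). Mrpl43, a mitochondria-specific protein, had 35.7, 85.3 and 34.3 against 125, 89.2 and 184. Its sides were parted only by the step from 85.3 to 89.2, and the authors' deposited table gives −1.36 ± 0.64 with p = 0.0350. A share of 33.4% of its exon bases lies opposite Twnk, the mitochondrial DNA helicase. Mrpl35, Mrpl37, Mrpl23 and Mrpl9 also had sides that did not overlap, with deposited log2 fold changes of −1.16, −0.78, −1.02 and −0.60. Mrpl37 had 118, 203 and 270 against 367, 303 and 340, and Mrpl23 25.7, 58.9 and 32.0 against 91.5, 66.9 and 77.7. In both, the gap between the sides was smaller than the spread of the positive-side columns. Mrpl35 had 57.1, 58.9 and 48.0 against 187, 78.0 and 101, where negative-side column 1 was far above the rest.

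Over the large subunit, Mrps18a and Mrps30 included, 46 of 49 tested members were below 0, with a median of −0.58. The 8 members listed as lining the tunnel exit were all below 0, from −1.02 for Mrpl23 to −0.22 for Mrpl24, with a median of −0.59. Mrpl45, which holds the ribosome to the inner membrane, was among them at −0.28 ± 0.43 in the authors' deposited table. Members with a bacterial counterpart (43 of 46 below 0, median −0.63) and mitochondria-specific members (27 of 29, median −0.63) had like medians. Neither subunit and neither origin was tested against the other.

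The 6 members above 0 were Mrps36, Mrpl33, Mrps18c, Mrps34, Mrpl14 and Mrpl41, and none of their p-values was low. Mrps36, the highest at 1.37 ± 1.82 in the authors' deposited table, is despite its name now known as a subunit of the 2-oxoglutarate dehydrogenase complex. Its normalised reads were 25.7, 26.4 and 13.7 against 0, 0 and 25.9, so the sides overlap. Mrpl33 had 106, 73.1 and 52.6 against 2.47, 55.7 and 43.2, where the low value in negative-side column 1 is 4 reads. Mrps18c had 75.7, 54.8 and 27.4 against 39.6, 0 and 43.2. In Mrps34 77.8% of the exon bases are shared with other genes.

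**Figure D3:**
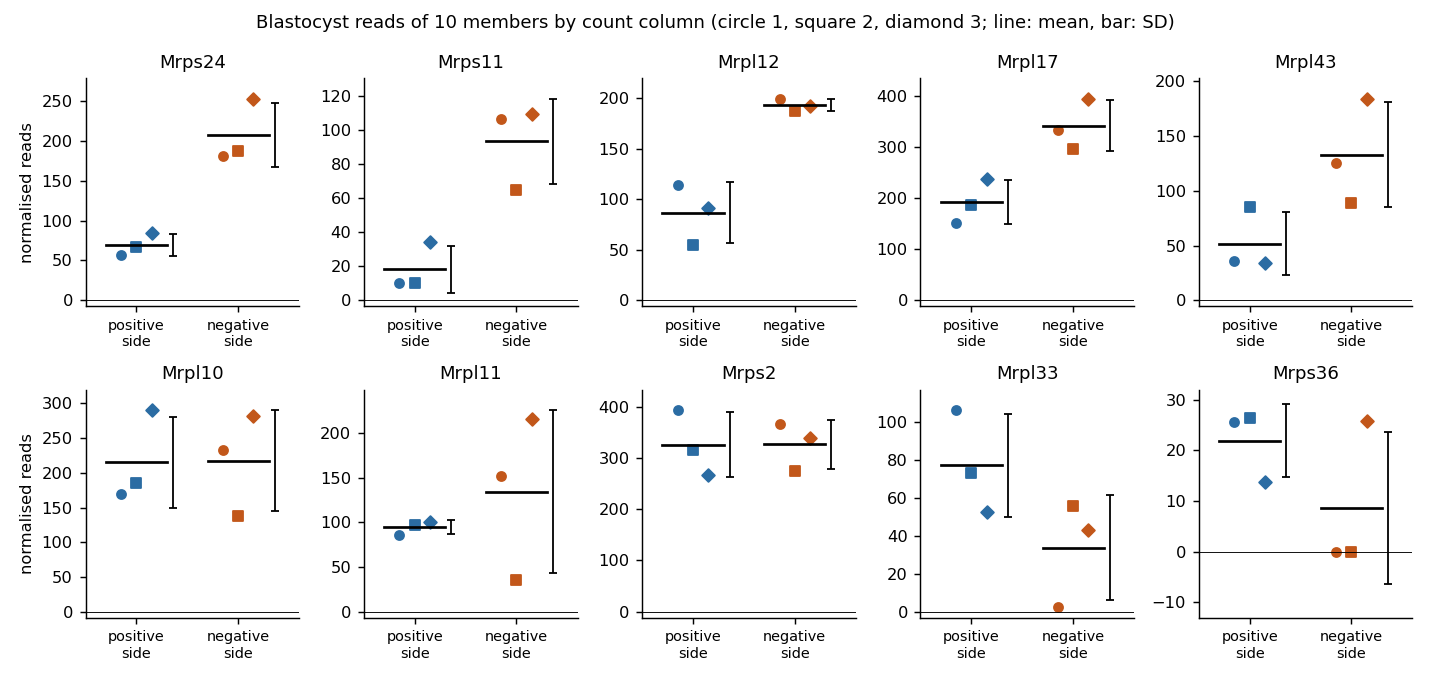
Normalised blastocyst reads of 10 members in the 3 count columns of each side (points), with the mean and SD per side. Mrps24, Mrps11, Mrpl12, Mrpl17 and Mrpl43 have sides that do not overlap; Mrpl10, Mrpl11, Mrps2, Mrpl33 and Mrps36 have sides that do.

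The promoters of the members were searched for motifs of factors known to serve nuclear genes of mitochondrial function. RefSeq windows on GRCm38.p6, from 250 bases before to 50 bases after an annotated start, were at hand for 68 members. The core GCGCATGCG of the NRF1 motif occurred in 7 of them (10.3%) on either strand, beside 2.61% of 17492 protein-coding genes and 4.24% of 9425 genes tested in blastocysts. The ETS core CCGGAAG occurred in 25 (36.8%), beside 12.9% and 20.1%, and the YY1 core AAGATGGCG in 8 (11.8%), beside 2.14% and 3.65%. No core contains another. At least 1 of the 3 was found in 35 of 68 members (51.5%), beside 16.6% and 26.0%. The 68 members had 74 windows, and a gene counted if any of its windows held a match. In blastocysts the members with a motif had a median log2 fold change of −0.77 (34 with a value) and those without −0.51 (33). This difference was not tested, and the same split was not made for other genes. A match is a description of letters, not a site shown to be bound.

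Of the 5 members with an unadjusted p under 0.05 in blastocysts, 4 held such a match, and these stretches are shown. Each is written on the gene's own strand with the motif in capitals. The Mrps11 match begins 108 bases before the start and is the YY1 core on the opposite strand. It also lies inside the annotated span of Mrpl46, chr7:78775236-78783531, and on the strand of that gene. The Mrps24 match begins at base 37 after the start. That start belongs to the RefSeq window chr11:5707652-5707951, which lies within the gene span given above and not at its end. In Mrpl17 the NRF1 core begins 11 bases and the ETS core 237 bases before the start. For Mrpl43 the whole 100 bases before the start, free of annotated exons, are given with both ETS cores.
Mrps11, chr7:78783013-78783041, plus strand: ctacgggcgcCGCCATCTTtctgtcttcc
Mrps24, chr11:5707652-5707675, minus strand: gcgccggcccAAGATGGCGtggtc
Mrpl17, chr7:105811080-105811108, minus strand: ccgagttactGCGCATGCGtcctctgaga
Mrpl17, chr7:105811308-105811334, minus strand: catgctccgcCCGGAAGgcgcctcctc
Mrpl43, chr19:45006443-45006542, minus strand: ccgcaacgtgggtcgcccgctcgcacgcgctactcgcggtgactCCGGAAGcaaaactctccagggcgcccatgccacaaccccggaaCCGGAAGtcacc
The Mrpl12 window held none of the 3 cores.

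Other nuclear genes of mitochondrial gene expression gave blastocyst list medians nearer 0, again with no gene past the test. Of the 5 further mitoribosome proteins whose symbols do not match the rule, 4 were below 0, with a median of −0.23, from Gadd45gip1 at −0.59 to Ptcd3 at 0.41. Of 25 assembly factors, 13 were below 0 (median −0.13), with Mettl15, a ribosomal RNA methyltransferase, lowest at −2.01 and Nsun4, of the same kind, highest at 1.51. The Mettl15 value has a standard error of 2.47 and rests on a mean of 8.41 normalised counts. Of 16 translation factors, 13 were below 0 (median −0.50), from the recycling factor Mrrf at −1.81 to the initiation factor Mtif3 at 5.13, which rests on a mean of 3.20 normalised counts. Of 17 mitochondrial tRNA synthetases, 10 were below 0 (median −0.25), and of 8 genes of mitochondrial transcription and replication, 7 (median −0.18). The smallest adjusted p among these lists in the authors' deposited table was 0.811 (DESeq2 Wald test). The differences between lists were not tested.

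The column pattern of these lists was not uniform. Over the 61 of 72 of these genes whose reads were recovered, the median deviation was 0.36 in negative-side column 1, −0.34 in column 2 and −0.01 in column 3, and −0.10 to −0.14 on the positive side. Single lists departed from these pooled medians: the 8 genes of transcription and replication stood at 0.04 in negative-side column 2, and the further mitoribosome proteins, 4 of 5 recovered, at 0.41 in column 3, near the 0.46 of the members.

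**Figure D4:**
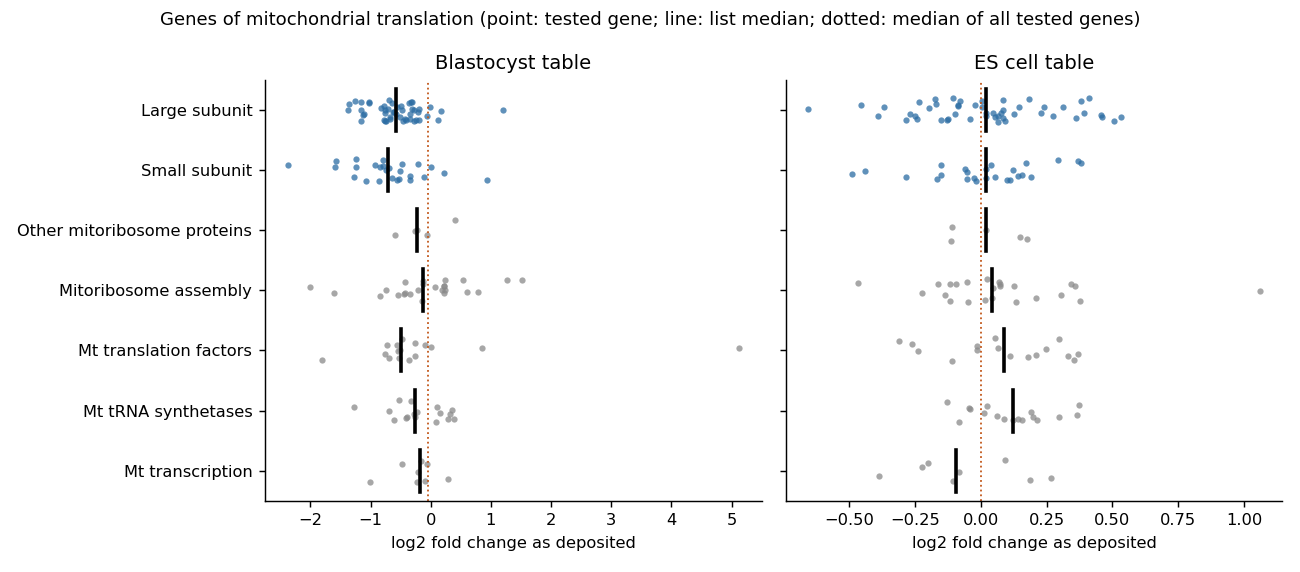
Log2 fold changes as deposited of tested genes (points) in the large and small mitochondrial ribosomal subunits and in 5 lists of other mitochondrial genes, with list medians (black) and the median over all tested genes (dotted). The subunit medians of −0.58 and −0.71 in blastocysts lie below those of the other lists, and all list medians in ES cells lie within 0.15 of 0.

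No pluripotent-cell marker passed the test in blastocysts. Of the 8, all were detected and 6 had a log2 fold change below 0, with a median of −0.33 and a smallest adjusted p of 0.205, that of Tdgf1, in the authors' deposited table (DESeq2 Wald test). At an unadjusted p under 0.05 in that test, 3 were on the negative side and 0 on the positive side. All tested genes gave 3.53% and 2.68%. The fold changes fell into a low part, with Nanog at −1.93, Tdgf1 at −1.75, Pou5f1 at −1.21 and Klf4 at −0.53, and a part near 0, with Dppa5a at −0.13, Zfp42 at −0.05, Esrrb at 0.0033 and Sox2 at 0.03. For the 6 whose reads were recovered, which leave out Dppa5a and Zfp42, the most abundant markers by mean, summed normalised reads were 1152, 571 and 433 on the positive side against 1627, 1157 and 1870. The sums were parted only by the step from 1152 to 1157, and the markers' median deviations overlapped, at 0.16, −0.98 and −1.25 against 0.27, −0.01 and 0.51. Of 8 trophectoderm markers, 3 were below 0 (median 0.34), and of 6 primitive endoderm markers, 4 (median −0.12), so markers of all 3 blastocyst lineages were present. Both lists held values on either side of 0. In trophectoderm, Krt8 was at −0.87 and Krt18 at −0.63, but Gata3 at 0.52 and Krt7 at 1.33. Primitive endoderm ran from Gata6 at −0.77 to Sox7 at 3.27. An unadjusted p under 0.05 was found for 2 trophectoderm markers below 0 and 2 above, and for 0 and 1 of primitive endoderm. In both lists 0 markers had an adjusted p under 0.05 in the authors' deposited table (DESeq2 Wald test). Col1a1, Col1a2, Col3a1, Postn, Lum and Dcn, 6 of 10 fibroblast markers, were at 0. The other 4 had reads, with means of 1291 for Sparc, 37.7 for Pdgfrb, 9.86 for Thy1 and 1.92 for Twist1. The part of the lineage markers in the members' values was not tested.

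In the ES cell table the members did not lean to either side. Of 75 tested, 33 had a log2 fold change below 0 and 42 above, beside 50% below 0 over all 10739 tested genes, and their median was 0.02. None had an adjusted p under 0.05 in the authors' deposited table (DESeq2 Wald test), where 0.261% of all genes did. At an unadjusted p under 0.05 there was 1 member on the negative side and 0 on the positive side, beside 3.42% and 2.21% of all tested genes. Every positive-side column lay below every negative-side column in 12 of 77 members and above in 16, beside 21.2% and 19.7% of 8255 other genes. These fold changes appear shrunken towards 0, since their standard errors never exceed 0.33 for any gene, so their sizes are not set against those of blastocysts.

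Mrpl28, a large-subunit protein with a bacterial counterpart, was that 1 member. It had 43.9 and 40.8 normalised reads against 103 and 62.8, sides that do not overlap. The authors' deposited table gives −0.65 ± 0.31 with p = 0.0344 and an adjusted p of 0.818 (DESeq2 Wald test). In blastocysts the same gene had 227, 114 and 245 against 234, 243 and 193, with sides that overlap. Mrps7, a protein of the small subunit's head, was next lowest in ES cells at −0.49, with 57.5 and 36.9 against 83.7 and 72.5.

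At the other end, Mrpl13 had 75.1 and 93.5 normalised reads against 54.2 and 45.4, and a deposited log2 fold change of 0.53 ± 0.30. Mrpl45 had 117 and 159 against 107 and 64.7, and 0.51 ± 0.29. Mrpl1, of the stalk at which tRNAs leave, had 126 and 161 against 86.5 and 104. In all 3 the positive-side columns were the higher ones, yet the smallest p of the 3 was 0.0766 in the authors' deposited table (DESeq2 Wald test). The stalk proteins were near 0, Mrpl12 at 0.24, Mrpl11 at 0.07, Mrpl10 at −0.13 and Mrpl53 at −0.25. The blastocyst leaders gave overlapping sides here: Mrps24 had 67.9 and 79.0 against 82.7 and 60.9, and Mrps11 34.3 and 31.6 against 30.4 and 37.7.

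The ES cell median depended on single negative-side columns. It was 0.22 without column 1 and −0.16 without column 2 on the recovered reads, whose ratio over all 4 columns was 0.03, because the members' median deviation was 0.17 in column 1 and −0.21 in column 2. Of the 77 members 63 had more reads in column 1 than in column 2. Fibroblast markers, which the feeder layer can supply, were highest in the latter: all 10 were detected, and their summed normalised reads were 1971 in negative-side column 2 against 446 to 536 in the other 3. Pluripotent markers were all 8 detected with means of 284 to 1375. All 8 had a log2 fold change below 0, from −0.51 for Zfp42 to −0.08 for Sox2, with a median of −0.32. Of the 10 fibroblast markers 9 were below 0, with a median of −0.41, beside 50% of all tested genes. An unadjusted p under 0.05 was found for 2 fibroblast markers, both below 0, and for 0 pluripotent markers. Of all tested genes 3.42% had one on the negative side. In both lists 0 markers had an adjusted p under 0.05 in the authors' deposited table (DESeq2 Wald test). The part of the feeder and pluripotent markers in the members' values was not tested.

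Across the 2 materials the members' fold changes showed no common order. Of 74 tested in both tables, 30 were negative in both, 39 negative in blastocysts and positive in ES cells, 2 the reverse and 3 positive in both. Across these genes, which are not independent replicates, Pearson's r was 0.03 and Spearman's rho 0.02.

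Their levels per kilobase ranked more alike, but both are divided by the same length, 488 bases for Mrps21 to 7300 for Mrpl17. A shared divisor can by itself raise a correlation, and none was computed without it. Per kilobase of the longest annotated transcript, the median member had a mean of 52.8 normalised counts in blastocysts and 24.1 in ES cells, and Spearman's rho between the materials was 0.65 across 76 members, on scales normalised separately. Mrpl2 led in blastocysts with 220 per kb and held rank 3 in ES cells with 90.4. Mrps28 led in ES cells with 152 per kb but held rank 35 in blastocysts with 61.0. The widest opposite shift was Mrps23, a mitochondria-specific small-subunit protein, at rank 6 in blastocysts with 138 per kb and rank 76 in ES cells with 6.59. Its blastocyst columns ranged from 138 to 261 normalised reads and its ES cell columns from 3.87 to 18.1, each table on its own scale. By mean per gene the most abundant members in blastocysts were Mrps2 (327), Mrpl37 (267) and Mrpl17 (267), and in ES cells Mrps9 (163), Mrpl1 (119) and Mrps28 (119).

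**Figure D5:**
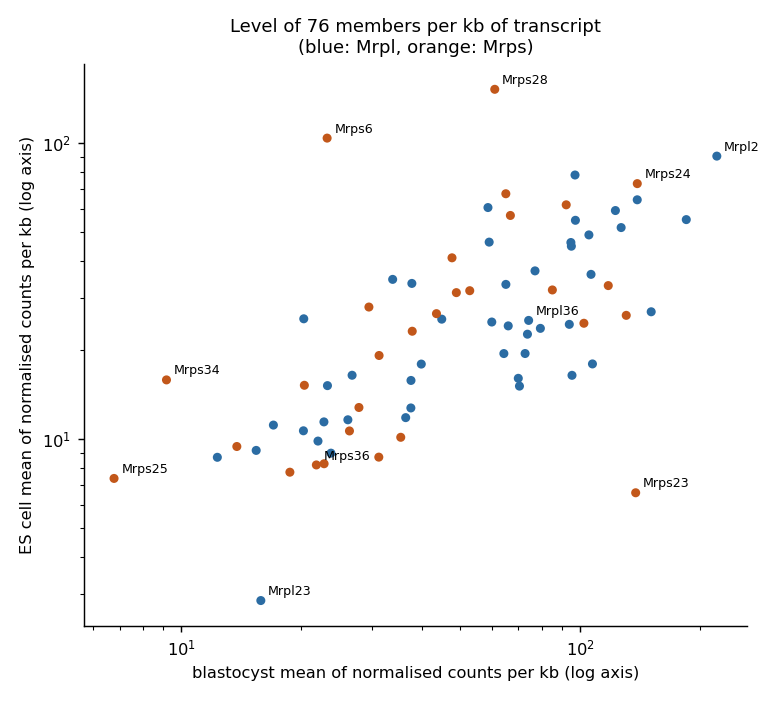
Mean of normalised counts per kb of transcript for 76 members in blastocysts (horizontal, log axis) and ES cells (vertical, log axis), each table on its own scale. Both levels are divided by the same transcript length. Most points follow a common trend; Mrps23 lies far below it and Mrps28 and Mrps6 above it.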

How the data were processed

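RNA sequencing of 4 groups of 3 samples was deposited as 1 table of comparison results per material. Per the submitters' processing notes, the tools were STAR 2.4.0b, featureCounts from Subread 2.0.1, SAMtools, bedtools and DESeq2 1.34.0, on GRCm38. Per the file headers, the signal column is the authors' mean of normalised counts, and the log2 columns are the authors' fold change and its standard error. The score column is the deposited Wald statistic. The p-value columns are the authors' p and Benjamini-Hochberg adjusted p-value. Their design formula and the direction of the comparison are not given in the sources used here, and 0 columns of per-sample values were set aside. The labels do not say that ES cell samples of a group came from separate lines, so p-values there may measure technical spread.

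As the tables hold no counts per sample, the authors' statistics were used, calling an adjusted p under 0.05. Whole reads per column were solved from each mean with Python 3.11.15. In blastocysts a solution was accepted where a negative binomial fit, with the dispersion taken from the standard error, gave back the deposited fold change within 2e-05; 76 of 76 members and 981 of 1000 randomly drawn other genes had exactly 1. In ES cells all 12137 genes with a mean up to 350 had exactly 1. Of the blastocyst members' counts 97.1% were even, against 47.7% in ES cells; even blastocyst counts may be pairs of mates, in which case fragments are fewer than reads. The solver was tested on simulated counts with means below those of the most abundant members. Those counts were not mostly even, so the test does not cover these 2 features of the blastocyst reads. Column ratios and deviations add 0.5 to normalised reads. Transcript lengths and overlaps came from GENCODE M21 on GRCm38. No molecular identifiers were used, so recovered reads can include copies of 1 molecule and give counting precision only.

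The members and lists were chosen with earlier results of these data known. Members to be named were those with an unadjusted p under 0.05, the 3 highest and 3 lowest by fold change and by mean, and the stalk proteins. Up to 10 per table with a mean of at least 50 whose sides did not overlap were added. Mrpl15, Mrpl34, Mrpl49, Mrps27 and Mrps33 met this rule through their ES cell values but are not described above. Genes of other lists are named at the ends of their list or past the test. Mrpl2, Mrpl14, Mrpl24, Mrpl41, Mrpl46 and Mrps6 are named outside this rule, after their values were seen. So are the blastocyst markers other than the ends of their lists, Gtpbp10 in blastocysts and the mitochondrially encoded genes. Protein sequences were not used here.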

Additional observations from a re-analysis of the deposited data

How the results depend on the processing

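The count of members past an adjusted p of 0.05 was 0 in both tables, and it stayed 0 at a threshold of 0.01, with the adjustment taken over every gene with a p-value, over genes with a mean of at least 50, or over autosomal genes; at an unadjusted p under 0.05 it reached 5 for blastocysts and 1 for ES cells. The smallest adjusted p over these adjustments was 0.285 to 0.324 in blastocysts and 0.649 to 0.962 in ES cells. The blastocyst median of −0.62 was −0.59 at a mean of at least 50, −0.58 after subtracting the median of all tested genes, −0.61 from recovered reads, and −0.85 to −0.48 leaving out 1 column at a time. The ES cell median of 0.02 stayed between 0.02 and 0.03 under the same choices, and lay between −0.16 and 0.22 leaving out 1 column at a time, so its sign is not fixed. Limited to members whose exons overlap no other gene, a choice made after seeing the data, the medians were −0.63 (45 members) and 0.05 (43). For the named members, the sign was kept in 180 of 198 values with a blastocyst column left out and in 109 of 136 with an ES cell column left out. No paired analysis was possible because the tables hold no value per sample and the count columns carry no replicate number. The planned count tests and their alternatives were not run for the same reason. Depth limits the weaker members: the Mrps11 value rests on 10 to 30 reads in each positive-side column.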

Other observations

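The messages that the mitochondrial ribosome translates had mostly positive signs; this set was chosen after the members' values were seen. Of the 13 protein-coding genes of the mitochondrial genome in the blastocyst table, 11 had a log2 fold change above 0, with a median of 0.41, and 0 an adjusted p under 0.05 in the authors' deposited table (DESeq2 Wald test). At an unadjusted p under 0.05 there were 3, all above 0. Of all tested blastocyst genes 51.7% were below 0, and 2.68% had an unadjusted p under 0.05 with a value above 0. The ES cell table lists 7 of them, of which 6 were above 0, with a median of 0.40 on its shrunken scale, and 0 had an adjusted p under 0.05 in the authors' deposited table (DESeq2 Wald test). There 3 had an unadjusted p under 0.05, all above 0, beside 2.21% of all tested genes with a value above 0, and 50% of all tested genes were below 0. These messages share 1 genome and long precursor transcripts, so they are not independent of each other, and their difference from the members was not tested.

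Gtpbp10, a GTPase that helps assemble the large mitochondrial subunit, came closest to the threshold among all the mitochondrial lists. In ES cells the authors' deposited table gives it a log2 fold change of 1.06 ± 0.29 with an adjusted p of 0.0641 (DESeq2 Wald test), while in blastocysts it had −0.22 ± 0.74.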
